A study of Homo sapiens with 35 samples.

Results

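Mitosis genes are described here over 14 groups of HCT116 cells, a human colorectal carcinoma line, on 35 gene expression arrays. The set is a list of 46 named genes of the G2 phase and of mitosis. Its genes were listed by function, with earlier results of these arrays known. Of these, 45 had an array row that names them alone, among 18404 genes tested. The exception was CENPA, the histone variant of the centromere, whose only row also names SLC35F6. Where a gene had several rows, the one with the highest mean value was kept, which among the members applied to BIRC5.

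The cells carried a short hairpin RNA against CDK8, against its paralogue CDK19, or a non-target hairpin, and the lines are called shCDK8, shCDK19 and shControl. CDK8 and CDK19 are the alternative kinases of the Mediator complex, which links transcription factors to RNA polymerase II. All 3 lines were arrayed in normal growth (3 replicates each), after 12 h with 5-fluorouracil (5FU, 2 each), after 24 h in low glucose medium (3 each) and after 24 h in 1% oxygen (2 each). Vehicle-treated cells (12 h with DMSO, 2 replicates) and cells in high glucose medium (24 h, 3 replicates) were given for the shControl line. Each target was represented by 1 hairpin line, so an effect of losing the kinase and a property of that line cannot be told apart. Nothing in the labels says whether replicates came from separate cultures, so the p-values cover only the variation among these arrays, part of which may be technical.

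In a dividing cell, cyclin B with CDK1 starts mitosis once CDC25 phosphatases remove its inhibitory phosphates, and the kinases PLK1 and AURKA help to set this off and to build the spindle. Kinesins move chromosomes and spindle fibres, kinetochore proteins such as NDC80 hold the fibres, and the spindle checkpoint (BUB1, BUB1B, BUB3, MAD2L1, TTK) holds back CDC20 until every chromosome is attached. Most of these genes are transcribed late in the cell cycle, by FOXM1 and by MYBL2 with the MuvB complex, and are repressed by the DREAM complex, which binds a promoter element called CHR. 5FU blocks thymidylate synthase and damages DNA and RNA, and HCT116 cells have a functional p53 pathway.

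The promoters of 6 members whose values recur below are printed because the CHR is the element through which DREAM is known to hold these genes down. They are RefSeq windows on GRCh38.p14, from 250 bases before to 50 after the transcription start, written 5′ to 3′ on the gene's strand. They lie at chr16:23678639-23678938 (plus strand) for PLK1, chr4:103198294-103198593 (minus) for CENPE, chr15:40160819-40161118 (plus) for BUB1B, chr5:138178862-138179161 (plus) for KIF20A, chr15:59104896-59105195 (plus) for CCNB2 and chr5:138331828-138332127 (minus) for CDC25C, the last being 1 of its 4 listed windows, the one with the most matches. Capitals mark CHR letters (TTTGAA, or the variant TTTAAA) and the CCAAT box bound by NF-Y, on either strand.
PLK1: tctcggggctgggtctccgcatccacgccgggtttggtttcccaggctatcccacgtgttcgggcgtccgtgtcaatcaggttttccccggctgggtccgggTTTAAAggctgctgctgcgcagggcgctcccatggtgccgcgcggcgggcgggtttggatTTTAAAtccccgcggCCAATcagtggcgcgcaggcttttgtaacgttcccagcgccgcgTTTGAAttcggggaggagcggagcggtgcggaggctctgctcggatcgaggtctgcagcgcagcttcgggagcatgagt
CENPE: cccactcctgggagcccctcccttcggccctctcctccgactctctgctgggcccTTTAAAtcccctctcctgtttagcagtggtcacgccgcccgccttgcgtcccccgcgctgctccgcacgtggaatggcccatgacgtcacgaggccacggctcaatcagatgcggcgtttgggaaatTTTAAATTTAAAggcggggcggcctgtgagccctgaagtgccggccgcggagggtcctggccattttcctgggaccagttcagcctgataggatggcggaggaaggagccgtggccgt
BUB1B: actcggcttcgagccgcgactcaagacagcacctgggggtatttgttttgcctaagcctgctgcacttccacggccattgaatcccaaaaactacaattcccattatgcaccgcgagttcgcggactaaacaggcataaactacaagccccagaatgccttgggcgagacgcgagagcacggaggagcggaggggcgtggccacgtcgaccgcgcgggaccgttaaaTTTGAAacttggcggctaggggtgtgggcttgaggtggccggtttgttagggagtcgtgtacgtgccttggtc
KIF20A: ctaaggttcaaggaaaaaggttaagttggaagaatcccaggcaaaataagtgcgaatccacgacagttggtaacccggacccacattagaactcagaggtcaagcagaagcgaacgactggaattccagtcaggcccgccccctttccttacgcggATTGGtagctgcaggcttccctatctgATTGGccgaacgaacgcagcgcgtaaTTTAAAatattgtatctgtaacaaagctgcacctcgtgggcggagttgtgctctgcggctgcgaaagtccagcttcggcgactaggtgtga
CCNB2: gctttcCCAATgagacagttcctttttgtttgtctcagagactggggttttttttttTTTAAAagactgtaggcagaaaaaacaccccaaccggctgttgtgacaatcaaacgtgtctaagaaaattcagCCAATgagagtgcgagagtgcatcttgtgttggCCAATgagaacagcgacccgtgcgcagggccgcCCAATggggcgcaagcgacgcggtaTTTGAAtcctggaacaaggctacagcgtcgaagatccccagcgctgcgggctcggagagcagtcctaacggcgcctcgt
CDC25C: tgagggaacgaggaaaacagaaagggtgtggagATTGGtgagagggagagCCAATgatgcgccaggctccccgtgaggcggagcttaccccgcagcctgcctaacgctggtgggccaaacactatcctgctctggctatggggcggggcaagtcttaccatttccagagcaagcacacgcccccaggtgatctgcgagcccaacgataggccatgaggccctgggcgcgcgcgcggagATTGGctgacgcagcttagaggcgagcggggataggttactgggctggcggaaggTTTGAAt

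Of the 38 members with a listed window, 32 (84.2%) held TTTGAA or TTTAAA on either strand in at least 1 window, against 27.9% of the 27305 genes listed. TTTGAA alone stood in 26 members (68.4%) and in 18.2% of all genes. A CCAAT box stood in 31 members (81.6%) and in 39.7% of all genes, and 19 members (50%) held at least 2 of them, against 12.9%. In PLK1 and in CCNB2 the TTTGAA began 29 bases before the start, and in BUB1B 23 bases before it. CENPE held TTTAAA 3 times, the nearest beginning 62 bases before the start, and neither TTTGAA nor CCAAT. In the printed CDC25C window TTTGAA began 43 bases after the start. Another window of CDC25C held it 30 bases before the start, and its remaining windows held no match. Over the 48 windows of the members, CHR letters began most often in the bin that opens 50 bases before the start, in 25% of windows against 3.08% of all 35116 windows. CCAAT boxes began most often in the bin that opens 75 bases before it, in 43.8% against 7.62%. These are matches of letters, not shown binding sites. Under 5FU against DMSO, the median log2 difference was -0.62 in the 25 measured members with TTTGAA and -0.58 in the 12 without. For either CHR form it was -0.62 in 31 with and -0.43 in 6 without. In low against high glucose the medians were -0.57 with TTTGAA and -0.54 without, and -0.53 and -0.57 for either form. Whether the motifs bear on these responses was not tested.

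**Figure D1:**
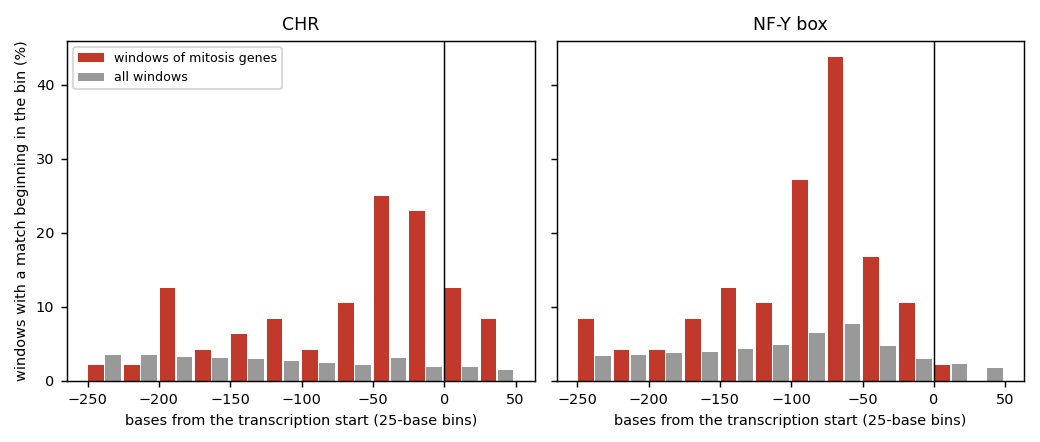
Share of promoter windows (y axis, percent) in which a CHR motif (left) or the box bound by NF-Y (right) begins in each 25-base bin of distance from the transcription start (x axis), for the 48 windows of mitosis genes (red) and for all 35116 windows (grey). The red bars are tallest just before the start, at 25% for the CHR and 43.8% for the NF-Y box.

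Values are the authors' log2 intensities, limited to between 4.322 and 14.288 on every array, and no member lay at either limit on any array. Of 8 epithelial markers, 7 lay above the median of all genes (8.01), with EPCAM at a mean log2 value of 12.0 and KRT8 at 13.1. CDX2 averaged 8.82, and VIL1, the marker below that median, 6.43. The 5 leukocyte markers averaged 4.39 to 6.65 and the 5 endothelial markers 5.15 to 6.39. The 6 fibroblast markers averaged 4.33 to 8.74, with 1 above the median, COL1A1. The array row of CDK8, which also names ADRA1B, read 7.58 to 8.53 in shCDK8 arrays, against 9.79 to 10.95 in shControl arrays. CDK19 was lower in shCDK19 than in shControl cells in normal growth (log2 difference -1.502 ± 0.114, SE, n = 3 each). It was lower in 5FU and in low glucose too, at -1.08 and -1.56. In hypoxia the log2 difference was -1.10 ± 0.140 and did not pass (limma adjusted p = 0.0948, n = 2 each). 5FU itself lowered CDK19 in shControl cells, by a log2 difference of -0.82 against DMSO. The files hold no read counts, and the number of arrays limits the precision.

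Among the members, 2 arrays stood apart from their replicates. On replicate 1 of shCDK8 in normal growth the members averaged 9.99 on the log2 scale, against 10.3 on each of the other 2 arrays of that group. On replicate 1 of shControl in hypoxia they averaged 10.07, against 10.51 on the other, and this array had the narrowest interquartile range of all 35, at 3.24 in a range of 3.24 to 3.79. Results that rest on these arrays are given with and without them. Shares of all genes called are given with all arrays only, so counts with arrays left out cannot be set against them.

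**Figure D2:**
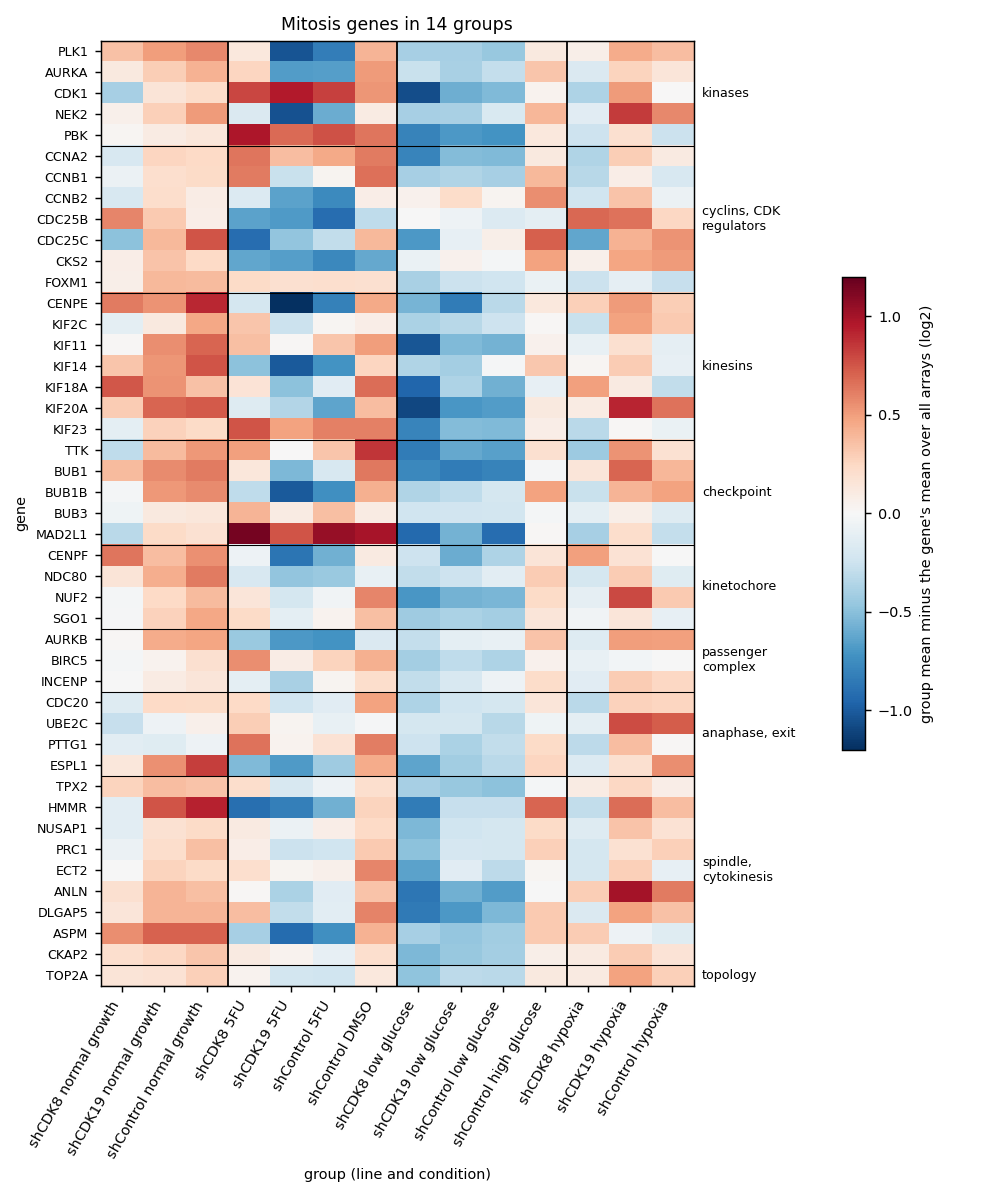
Mean log2 value of 45 mitosis genes (rows, by role) in 14 groups (columns, by experiment), minus the gene's own mean over all 35 arrays. Blue columns mark low glucose in all 3 lines, and in the 5FU block PLK1, AURKA, CENPE and BUB1B are blue in shCDK19 and shControl cells and paler in shCDK8 cells, while CDK1 and MAD2L1 are red in all 3 lines.

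5FU lowered 26 mitosis genes in shControl cells, with PLK1, AURKA, CENPE, BUB1B and ASPM lowest, while CDK1, MAD2L1, KIF23 and FOXM1 did not pass as lower. Against DMSO, 26 of the 45 members were lower and 1 was higher in limma's test (adjusted p under 0.05 over all genes), where 4.29% of all genes were lower and 7.17% higher. The members' median log2 difference was -0.53, against -0.02 over all genes. Of the members, 35 were lower on both 5FU arrays than on both DMSO arrays, and 3 were higher. Over all genes, 24% were lower and 24.4% higher in this way. At least 2-fold lower were 6 members, a count that was not made over all genes. In extracts of whole cultures, fewer cells in mitosis and less of the RNA in each cell cannot be told apart.

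Of the kinases, PLK1 and AURKA fell and the others did not pass the test. PLK1, which drives entry into mitosis and exit from it, read 11.33 and 11.22 in 5FU, against 12.51 and 12.51 in DMSO, a fall to 2.36-fold below DMSO (log2 difference -1.24 ± 0.063, SE, limma adjusted p = 0.00151). AURKA, the kinase of spindle poles, read 9.25 and 9.25 in 5FU, against 10.37 and 10.46 in DMSO, and the log2 difference was -1.17 ± 0.080 (limma adjusted p = 0.00265). The arrays of the 2 treatments did not overlap for either gene. CDK1, the kinase that both cyclin B proteins activate, read 10.30 and 10.25 in 5FU, against 9.87 and 10.08 in DMSO (log2 difference 0.30, limma adjusted p = 0.121). NEK2, which separates centrosomes, had a log2 difference of -0.69 and PBK one of 0.12, with no call for either.

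The cyclins split in the same way. CCNB1, a cyclin B that activates CDK1, read 10.22 and 10.09 in 5FU, against 10.72 and 10.86 in DMSO (log2 difference -0.63 ± 0.098, limma adjusted p = 0.0179). CCNB2, the other cyclin B measured, read 9.64 and 9.40 in 5FU, against 10.33 and 10.40 in DMSO (log2 difference -0.85 ± 0.128). Both fell without overlap between treatments. CCNA2, the cyclin of S phase and G2, had a log2 difference of -0.17 and did not pass. CDC25B, a phosphatase that starts CDK1 activation, fell by 0.61 on the log2 scale, with 9.76 and 9.90 in 5FU against 10.35 and 10.52 in DMSO. CDC25C, which amplifies that activation, read 7.91 and 7.88 in 5FU, against 8.31 and 8.86 in DMSO, and missed the threshold (log2 difference -0.69 ± 0.199, limma adjusted p = 0.0874). FOXM1, a transcription factor that drives many of these genes, did not pass, with 11.10 and 11.02 in 5FU and 11.004 and 11.086 in DMSO (log2 difference 0.02, SE 0.061).

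Of the 7 kinesins, 4 fell. CENPE, which carries chromosomes to the middle of the spindle, read 7.49 and 7.53 in 5FU, against 8.64 and 8.92 in DMSO, the lowest log2 difference of any member at -1.27 ± 0.105 (limma adjusted p = 0.00424). KIF20A, a kinesin of the final cut between daughter cells, read 9.98 and 9.87 in 5FU, against 10.85 and 11.02 in DMSO (log2 difference -1.002 ± 0.095). KIF14 fell by 0.97 and KIF18A, which dampens chromosome swings, fell by 0.81 on the log2 scale. KIF11, the motor that pushes spindle poles apart, had a log2 difference of -0.17, KIF2C one of -0.06 and KIF23 one of 0.01, and none of these passed.

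The spindle checkpoint moved in both directions. BUB1B, a checkpoint protein that holds CDC20, read 10.01 and 9.97 in 5FU, against 11.16 and 11.15 in DMSO (log2 difference -1.16 ± 0.048, limma adjusted p = 0.00151). BUB1, the kinase that brings other checkpoint proteins to kinetochores, fell by 0.83, and TTK, the kinase that starts checkpoint signalling, fell by 0.52 on the log2 scale. BUB3, the binding partner of BUB1 and BUB1B, was the single member called higher, with 11.31 and 11.26 in 5FU against 11.06 and 10.98 in DMSO (log2 difference 0.26 ± 0.054, limma adjusted p = 0.036), and it lost that call when each array's median was subtracted. MAD2L1, which forms the inhibitory complex with CDC20, had a log2 difference of 0.06 (SE 0.070).

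Of the 4 centromere and kinetochore members measured, 3 fell. CENPF, which assembles on kinetochores late in G2, read 10.12 and 9.86 in 5FU, against 10.54 and 10.80 in DMSO (log2 difference -0.68 ± 0.129, limma adjusted p = 0.0276). NUF2 fell by 0.62 and SGO1, which protects centromere cohesion, fell by 0.32, while NDC80, the partner of NUF2, had a log2 difference of -0.36 with an SE of 0.229 and did not pass. The row that CENPA shares with SLC35F6 averaged 8.88 in 5FU and 10.02 in DMSO, and it is not counted.

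In the chromosomal passenger complex, AURKB, its kinase, fell, with 10.09 and 9.99 in 5FU against 10.54 and 10.63 in DMSO (log2 difference -0.55 ± 0.076). Its partners BIRC5 and INCENP had log2 differences of -0.16 and -0.17 and did not pass. Of the genes of anaphase, ESPL1, the protease that cuts cohesin, read 8.82 and 8.80 in 5FU, against 9.55 and 9.81 in DMSO (log2 difference -0.87 ± 0.121). CDC20 fell by 0.62 and PTTG1, the inhibitor of ESPL1, fell by 0.44, while UBE2C had a log2 difference of -0.08. Of the 9 spindle and cytokinesis proteins, 6 fell. ASPM, which focuses spindle poles, read 8.08 and 7.93 in 5FU, against 8.99 and 9.33 in DMSO (log2 difference -1.15 ± 0.124). HMMR, another spindle protein, read 8.11 and 7.72 in 5FU, against 8.61 and 8.93 in DMSO, and just missed the threshold (log2 difference -0.85 ± 0.200, limma adjusted p = 0.0516). TOP2A, which untangles sister chromosomes, read 10.34 and 10.24 in 5FU, against 10.61 and 10.72 in DMSO (log2 difference -0.37 ± 0.068, limma adjusted p = 0.0253).

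The number of members called lower by 5FU rests on few arrays. It was 5 without either of the shControl 5FU replicates and 27 or 23 without DMSO replicate 1 or 2, while the members' median stayed between -0.56 and -0.47. A plain linear model without shared variances called 17.

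**Figure D3:**
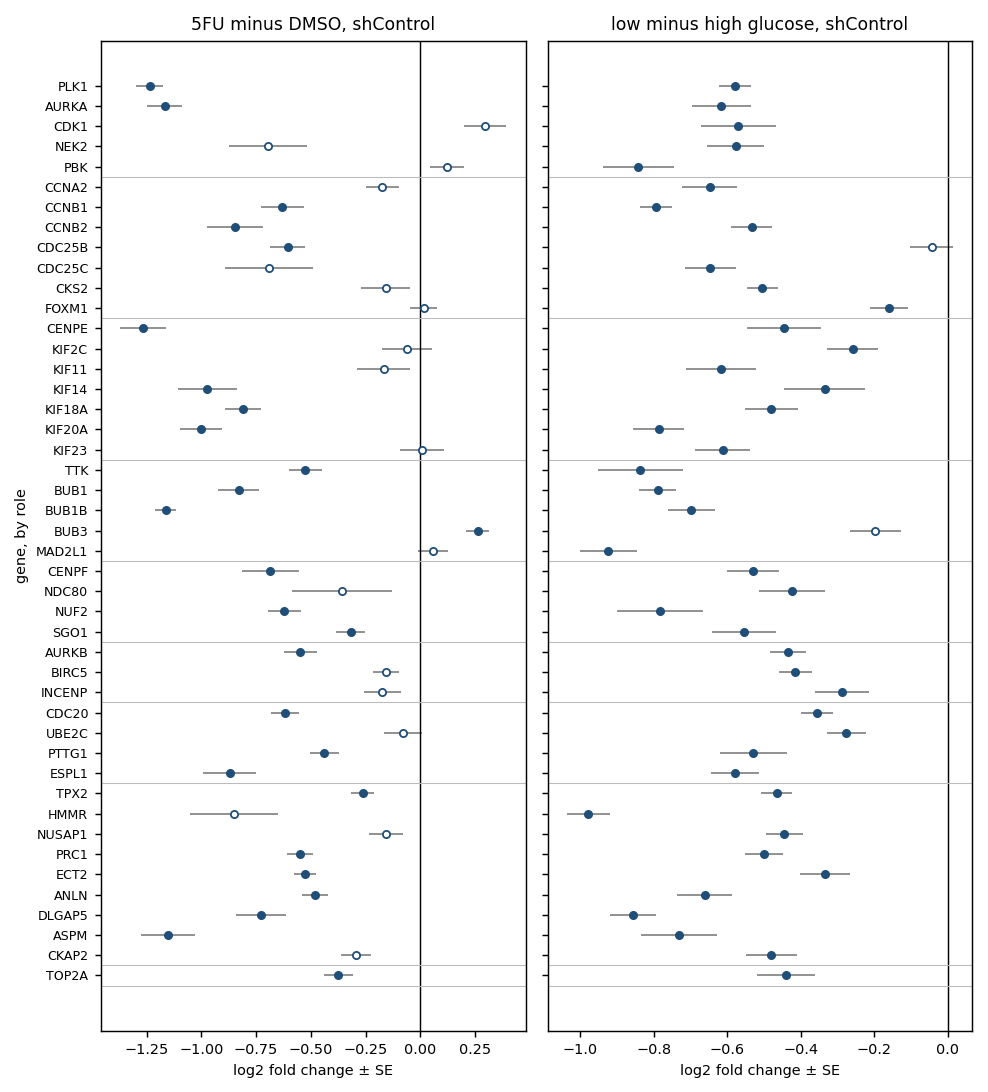
Log2 fold change of each mitosis gene (y axis, by role, with grey lines between roles) in shControl cells, for 5FU minus DMSO (left, n = 2 each) and low minus high glucose (right, n = 3 each). Points are estimates with SE bars, filled where the limma adjusted p is under 0.05. On the left the points run from -1.27 to 0.30, and on the right all 45 lie below 0.

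Low glucose lowered nearly the whole set. Against high glucose medium, 43 of the 45 members were lower in shControl cells and none was higher in limma's test (none at an unadjusted p under 0.05 either), where 17.3% of all genes were lower and 13.9% higher. The median log2 difference was -0.53, against 0.02 over all genes, and all 45 estimates were below 0. Leaving out any 1 array of the 2 groups compared left 39 to 42 members lower. The exceptions were CDC25B (log2 difference -0.04, SE 0.059) and BUB3 (-0.20, SE 0.069, limma adjusted p = 0.0542).

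Several members that had not passed under 5FU were lower in low glucose. CDK1 read 8.81, 8.87 and 9.09 in low glucose, against 9.42, 9.53 and 9.52 in high glucose (log2 difference -0.57 ± 0.103, limma adjusted p = 0.00181). MAD2L1 fell by 0.92, PBK by 0.84, KIF11 by 0.62 and KIF23 by 0.61 on the log2 scale. HMMR read 8.26, 8.23 and 8.17 in low glucose, against 9.09, 9.26 and 9.23 in high glucose, the lowest log2 difference at -0.98 ± 0.058. CCNB1, which had passed as lower under 5FU too, fell in low glucose as well. It read 9.77, 9.75 and 9.65 in low glucose, against 10.55, 10.54 and 10.47 in high glucose (log2 difference -0.79 ± 0.044). In all of these the 2 media did not overlap.

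PLK1 and CENPE, among the lowest members under 5FU, were lower here as well. PLK1 read 11.72, 11.58 and 11.63 in low glucose, against 12.26, 12.18 and 12.22 in high glucose, 1.49-fold lower (log2 difference -0.58 ± 0.044). CENPE read 7.99, 7.95 and 8.05 in low glucose, against 8.24, 8.51 and 8.57 in high glucose (log2 difference -0.45 ± 0.102, limma adjusted p = 0.00708). FOXM1 fell by a little, with 10.67, 10.58 and 10.62 in low glucose against 10.83, 10.75 and 10.77 in high glucose (log2 difference -0.16 ± 0.051, limma adjusted p = 0.0378). Of the 26 members lowered by 5FU, 25 were also among the 43 lowered by low glucose, which is 96.2% of the first list and 58.1% of the second. The gene outside was CDC25B. Low glucose lowered 95.6% of all 45 members, so any list of members would overlap with it to about this extent. The overlap over all genes was not counted. The size of a response was not tested between the 2 experiments.

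The shCDK8 line had less of most mitosis genes in normal growth. Against shControl, 26 members were lower and 2 higher, where 13.5% of all genes were lower and 11.4% higher, and the median log2 difference was -0.31 against -0.02 over all genes. The lower members included 3 of 5 kinases, 5 of 7 kinesins, 3 of 5 checkpoint genes, 3 of 4 kinetochore genes and 3 of 4 anaphase genes. Without the shCDK8 array that stood apart, 29 were lower and 3 higher, with a median of -0.21. Leaving out any 1 shControl array left 16 to 18. The epithelial markers moved in this line too, with 4 of 8 lower and 2 higher, among them CDH1 at a log2 difference of -1.70, while leukocyte and endothelial markers had no call among 5 each and 1 of 6 fibroblast markers was lower. Their part in the result was not tested.

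CDC25C and HMMR were the members furthest below shControl. CDC25C read 7.47, 7.89 and 7.75 in shCDK8 cells, against 8.87, 8.97 and 8.98 in shControl cells, 2.36-fold lower (log2 difference -1.24 ± 0.109, limma adjusted p = 0.000171). HMMR read 8.03, 8.50 and 8.59 in shCDK8 cells, against 9.34, 9.50 and 9.43 in shControl cells (log2 difference -1.05 ± 0.147, limma adjusted p = 0.00164). All 3 shCDK8 arrays lay below all 3 shControl arrays for both genes. BUB1B read 10.63, 10.73 and 10.72 in shCDK8 cells, against 11.36, 11.24 and 11.27 in shControl cells (log2 difference -0.60 ± 0.054). TTK fell by 0.83, ESPL1 by 0.69, KIF11 by 0.68 and CDK1 by 0.62 on the log2 scale. FOXM1 read 10.81, 10.98 and 10.997 in shCDK8 cells, against 11.28, 11.25 and 11.20 in shControl cells (log2 difference -0.31 ± 0.059).

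The 2 members above shControl were CDC25B and KIF18A. CDC25B read 11.20, 11.43 and 11.37 in shCDK8 cells, against 10.80, 10.92 and 10.75 in shControl cells (log2 difference 0.51 ± 0.075, limma adjusted p = 0.00204), so the CDC25 phosphatases moved in opposite directions. KIF18A had a log2 difference of 0.39 ± 0.104. PLK1, with 12.41, 12.44 and 12.50 in shCDK8 cells and 12.80, 12.60 and 12.63 in shControl cells, was lower by a small step (log2 difference -0.23 ± 0.061, limma adjusted p = 0.0282). CENPE and AURKA did not pass, at -0.28 and -0.30.

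In 5FU the sign of the shCDK8 difference turned. Of the 45 members, 40 were above shControl by the estimate, 7 passed as higher and none as lower, where 1.59% of all genes were higher and 1.91% lower (1 member was lower at an unadjusted p under 0.05). PLK1 read 12.19 and 12.27 in shCDK8 cells, against 11.33 and 11.22 in shControl cells, 1.94-fold higher (log2 difference 0.96 ± 0.063, limma adjusted p = 0.00282). AURKA read 10.06 and 10.27 in shCDK8 cells, against 9.25 and 9.25 in shControl cells (log2 difference 0.92 ± 0.080, limma adjusted p = 0.0062). CENPE read 8.08 and 8.13 in shCDK8 cells, against 7.49 and 7.53 in shControl cells (log2 difference 0.59 ± 0.105, limma adjusted p = 0.0469).

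The other members called higher were CCNB1, PTTG1, BUB1B and CDC20. CCNB1 read 10.69 and 10.81 in shCDK8 cells, against 10.22 and 10.09 in shControl cells (log2 difference 0.59 ± 0.098). BUB1B read 10.39 and 10.44 in shCDK8 cells, against 10.01 and 9.97 in shControl cells (log2 difference 0.42 ± 0.048), so it lay above shControl in 5FU and below it in normal growth. PTTG1 was higher by 0.48 and CDC20 by 0.37. CDC25C and HMMR kept lower estimates, at -0.61 and -0.33, without a call. Leaving out any 1 array of the 2 groups left 1 or 2 members higher, with medians of 0.22 to 0.32.

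The difference between the shCDK8 effects in 5FU and in normal growth was tested directly, in 1 fit of all arrays. It was above 0 for 26 members and below 0 for none, where 6.25% of all genes were above and 5.62% below (none of the members was below 0 at an unadjusted p under 0.05). The estimates were 1.22 ± 0.137 for AURKA, 1.19 ± 0.083 for PLK1, 1.02 ± 0.093 for BUB1B, 0.99 ± 0.251 for TTK and 0.91 ± 0.124 for KIF20A on the log2 scale. All 4 anaphase genes passed, as did 6 of 7 cyclins and CDK regulators, 3 of 5 kinases, 3 of 5 checkpoint genes and 3 of 7 kinesins. Without both arrays that stood apart, 30 members were above 0 and 1 below, and without any 1 array 18 to 31 were above.

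**Figure D4:**
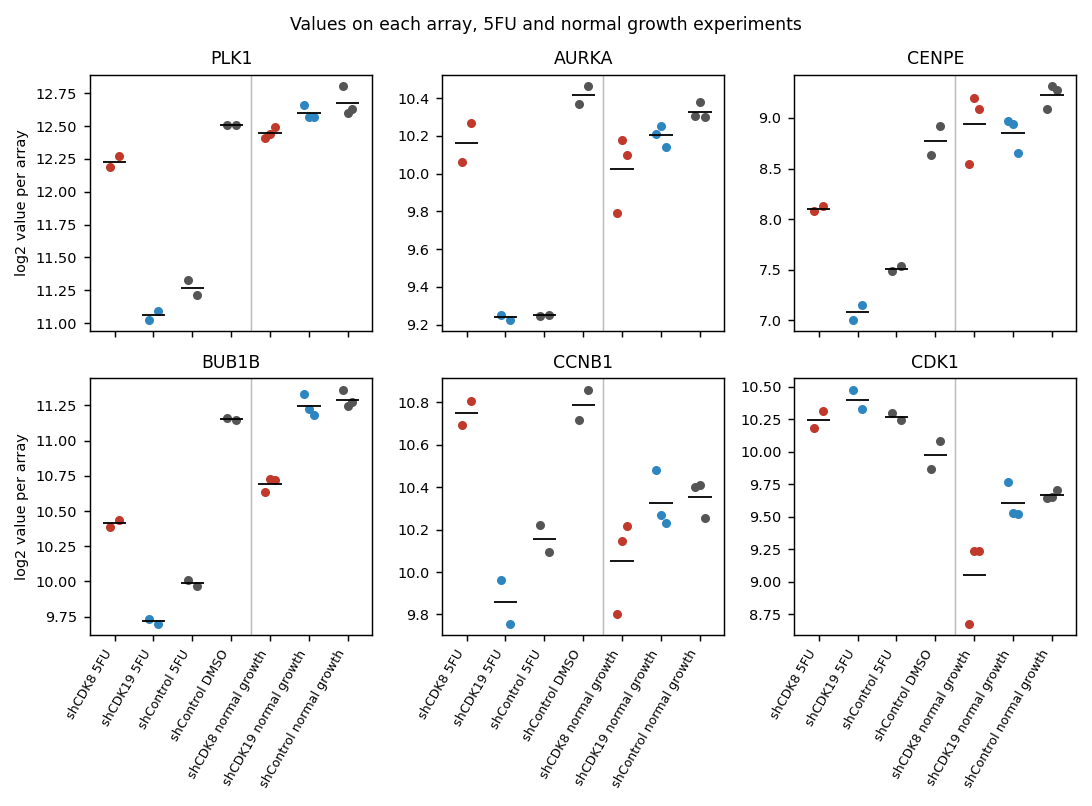
Log2 value on each array (points) and group mean (lines) for PLK1, AURKA, CENPE, BUB1B, CCNB1 and CDK1, with the 5FU experiment left of the grey line and normal growth right of it, in shCDK8 (red), shCDK19 (blue) and shControl (grey) cells. In 5FU the red points of PLK1 (12.19 and 12.27) lie above the shControl points (11.33 and 11.22), and CDK1 is at 10.18 or above in all 3 lines.

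No DMSO array of a knockdown line was analysed here, so the response of each line to 5FU could be set only against its own normal growth, which was another experiment, so treatment and experiment cannot be told apart in these values. That step alone was not neutral for genes in general. In shControl cells, DMSO against normal growth had 14.7% of all genes higher and 25.4% lower. The members were near these shares, with 9 higher and 13 lower (20% and 28.9%). In 5FU against normal growth, shCDK8 cells had 16 members higher and 15 lower (24.5% and 25.4% of all genes), shCDK19 cells 3 higher and 33 lower (16.8% and 23.5%), and shControl cells 5 higher and 29 lower (15.9% and 24.3%). The medians were 0.03 in shCDK8, -0.55 in shCDK19 and -0.49 in shControl cells. Without the array that stood apart, shCDK8 cells had 13 higher and 17 lower, with a median of -0.08.

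PLK1, AURKA and BUB1B, which passed the test of the difference above, were among the members with the widest gaps between lines. Between shCDK8 and shControl cells this gap is the same quantity as the difference tested, so it is not a further result. PLK1 in 5FU against normal growth had a log2 difference of -0.22 in shCDK8, -1.54 in shCDK19 and -1.41 in shControl cells. AURKA had one of 0.14 in shCDK8, -0.96 in shCDK19 and -1.08 in shControl cells. BUB1B had one of -0.28 in shCDK8, -1.53 in shCDK19 and -1.30 in shControl cells. The estimates of PLK1 and BUB1B were thus below 0 in every line. So were those of CDC25B, at -1.23 in shCDK8, -0.99 in shCDK19 and -0.99 in shControl cells. CENPE was below 0 in every line too, at -0.84 in shCDK8, -1.78 in shCDK19 and -1.71 in shControl cells. MAD2L1 was higher in every line, at 1.47 in shCDK8, 0.53 in shCDK19 and 0.86 in shControl cells, and by 0.80 for DMSO against normal growth in shControl cells.

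The direct comparison of the knockdown lines in 5FU gave the larger count. Against shCDK19, 20 members were higher in shCDK8 cells and none lower (none at an unadjusted p under 0.05 either), where 2.22% of all genes were higher and 2.92% lower. All 5 checkpoint genes were among them, BUB3 and MAD2L1 included, at 0.31 and 0.39 on the log2 scale. PLK1 read 12.19 and 12.27 in shCDK8 cells, against 11.03 and 11.10 in shCDK19 cells (log2 difference 1.17 ± 0.063, limma adjusted p = 0.00206). CENPE read 8.08 and 8.13 in shCDK8 cells, against 7.01 and 7.15 in shCDK19 cells (log2 difference 1.03 ± 0.105). CENPF read 10.46 and 10.54 in shCDK8 cells, against 9.61 and 9.76 in shCDK19 cells (log2 difference 0.81 ± 0.129). Without any 1 array of the 2 groups, 1 to 3 members were called.

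Few members passed in the shCDK19 line. In normal growth 1 member was lower, KIF2C, a kinesin that takes microtubules apart (log2 difference -0.35 ± 0.084, limma adjusted p = 0.0495), and none was higher (1 at an unadjusted p under 0.05), where 3.4% of all genes were lower and 3.67% higher. Leaving out any 1 of the 6 arrays left 0 members lower (5 to 8 at an unadjusted p under 0.05). In 5FU none passed in either direction (14 lower and 2 higher at an unadjusted p under 0.05), where 0.261% of all genes were lower and 0.576% higher. PLK1 read 11.03 and 11.10 in shCDK19 cells, against 11.33 and 11.22 in shControl cells (log2 difference -0.21, limma adjusted p = 0.23). CENPE read 7.01 and 7.15 in shCDK19 cells, against 7.49 and 7.53 in shControl cells (log2 difference -0.43, limma adjusted p = 0.16). No difference between the shCDK19 effects in 5FU, low glucose or hypoxia and in normal growth passed for any member with all arrays. Of all genes, 2.18% passed as above and 1.81% as below 0 in 5FU, 0.989% and 0.799% in low glucose, and 1.52% and 0.56% in hypoxia. At an unadjusted p under 0.05, 2 members were above and 5 below in 5FU, 2 and 0 in low glucose, and 14 and 0 in hypoxia. Shares of all genes called are at the adjusted threshold throughout. None was counted at an unadjusted p, so member counts at an unadjusted p cannot be set against them. In hypoxia the members' median was 0.25, and 0.08 to 0.50 with 1 array left out.

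**Figure D5:**
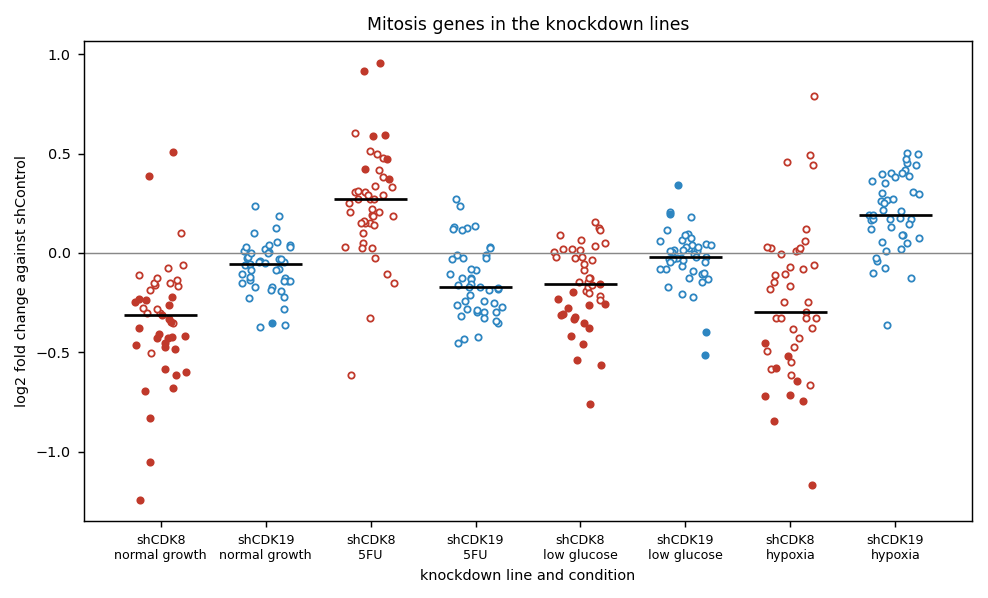
Log2 fold change of the 45 mitosis genes against shControl cells of the same condition (y axis), in shCDK8 (red) and shCDK19 (blue) cells, with filled points for limma adjusted p under 0.05 and a line at the median (1 point per gene, spread sideways for legibility). The shCDK8 median is -0.31 in normal growth and 0.27 in 5FU.

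In low glucose, 17 members were lower in shCDK8 than in shControl cells and none was higher (1 at an unadjusted p under 0.05), where 10.2% of all genes were lower and 12.1% higher. CDC25C again had the lowest log2 difference, with 7.52, 7.52 and 7.46 in shCDK8 cells against 8.37, 8.11 and 8.30 in shControl cells (-0.76 ± 0.069, limma adjusted p = 3.33e-05). HMMR read 7.63, 7.73 and 7.60 in shCDK8 cells, against 8.26, 8.23 and 8.17 in shControl cells (log2 difference -0.56 ± 0.058). Of the 7 kinesins 5 were lower, and of the 5 checkpoint genes none passed. KIF18A was lower by 0.38 here, where it had been higher in normal growth. In shCDK19 cells MAD2L1 and CCNB2 were higher, by 0.34 and 0.20, and CENPE and KIF14 were lower, at -0.51 and -0.40, where 9.11% of all genes were higher and 10.8% lower.

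Between the knockdown lines, the count lower in shCDK8 than in shCDK19 cells was 19 in normal growth, 17 in low glucose and 13 in hypoxia, where 13.2%, 11.2% and 5.09% of all genes were lower. The count higher was 2 in normal growth, 1 in low glucose and 0 in hypoxia (in hypoxia, 0 at an unadjusted p under 0.05), where 12.9%, 14.7% and 7.26% of all genes were higher. The member higher in low glucose was CENPF. The hypoxia count depended on each array of the 2 knockdown groups, and leaving 1 of them out leaves a single array in its group. The members' median log2 difference then ran from -0.52 to -0.43, against -0.45 with all arrays.

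In hypoxia the results changed with each array that was left out. Against shControl, 9 members were lower in shCDK8 cells and none higher (3 at an unadjusted p under 0.05), where 2.49% of all genes were lower and 4.81% higher. Without shControl replicate 1, 20 were lower. Without shControl replicate 2, 13 were lower and 7 higher. Without either shCDK8 array, 0 were lower (13 or 11 at an unadjusted p under 0.05). CDC25C read 7.67 and 7.47 in shCDK8 cells, against 8.46 and 9.001 in shControl cells (log2 difference -1.17 ± 0.200, limma adjusted p = 0.0411). AURKB, with 10.61 and 10.59 in shCDK8 cells against 11.28 and 11.21 in shControl cells, was lower with little spread between arrays (log2 difference -0.64 ± 0.076). In shCDK19 cells none passed in either direction (without adjustment, 4 were higher and 1 was lower at p under 0.05), where 0.196% of all genes were higher and 0.0326% lower, and 20 were higher without shControl replicate 2.

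The shCDK8 effect in low glucose and in hypoxia was also set against that in normal growth. In low glucose the difference was above 0 for 7 members and below 0 for 2, where 7.78% of all genes were above and 5.06% below. Among the members that passed, KIF2C, UBE2C and BUB1B lay highest, at 0.45 each on the log2 scale, and KIF18A lay lowest, at -0.76. Without the shCDK8 normal growth array that stood apart 4 members were above 0. In hypoxia the difference was above 0 for 1 member and below 0 for 2 (2.22% and 4.44% of the members), where 9.06% of all genes were above and 2.45% below. Without shControl hypoxia replicate 1 none was above 0 (1 at an unadjusted p under 0.05), and without replicate 2 the count was 14.

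Hypoxia itself could be set only against the normal growth experiment. In shControl cells 21 members were lower and 3 higher, where 26.7% of all genes were lower and 21.1% higher, and without hypoxia replicate 1, which stood apart, 3 were lower and 6 higher, while without replicate 2 the counts were 32 lower and 2 higher. In shCDK8 cells 6 were lower and none higher (1 at an unadjusted p under 0.05), where 5.57% of all genes were lower and 3.52% higher, and 15 were lower without the shCDK8 array that stood apart. Leaving out either shCDK8 hypoxia array left 1 or 3 lower, and leaving out either of the other normal growth arrays left 2. In shCDK19 cells 5 were lower and 8 higher (20.2% and 11.1% of all genes). FOXM1 was lower in all 3 lines, with log2 differences of -0.33 in shCDK8, -0.49 in shCDK19 and -0.66 in shControl cells. UBE2C, the ubiquitin carrier of the anaphase-promoting complex, was higher by 0.84 in shCDK19 and by 0.67 in shControl cells, while its estimate in shCDK8 cells was 0.16 with no call.

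Related genes outside the set moved with it only in part. Under 5FU, 12 of 26 other spindle and cytokinesis genes were lower and none higher in shControl cells, where 4.29% of all genes were lower and 7.17% higher, with DEPDC1 at -1.36 and CKAP5 at -0.86 on the log2 scale. Of 16 constitutive centromere genes 4 were higher and 1 lower, with CENPQ at 0.87, and of 8 condensin subunits 3 were lower, with NCAPD2 at -0.65. Of 15 regulators that bind these promoters, MYBL1 was higher by 1.22 and RBL2, a pocket protein of the DREAM complex, was lower, at -1.02. Low glucose lowered 23 of the 26 spindle and cytokinesis genes, 7 of 8 condensin subunits, 12 of 16 constitutive centromere genes and 10 of 15 other kinetochore genes, where 17.3% of all genes were lower, with MYBL1 at -1.09 and MYBL2 at -0.67. In shCDK8 cells in normal growth, 13 of 26, 6 of 8, 7 of 16 and 9 of 15 genes of these lists were lower, where 13.5% of all genes were lower, TFDP2 among the regulators was at -1.15, and MYBL1 was higher by 0.66.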

How the data were processed

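Total RNA of HCT116 cells was hybridised to Affymetrix HuGene 1.0 ST arrays (labels and design text of the series). The deposited values are log2 intensities; the submitters' processing notes name Partek as the authors' software, without its version. How background was corrected and arrays were normalized is not given in the sources used here; a change is thus one relative to other genes. The scale was read from the shared limits, 20 and 20000 before taking logs. Of 32321 rows, 19158 named 1 gene, and 18404 genes were tested.

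Groups came from the sample titles. Comparisons within an experiment used limma 3.58.1 (lmFit, then eBayes; R 4.3.3) on all arrays of that experiment. Comparisons across experiments and differences of effects used 1 fit of all 35 arrays. P-values are two-sided and adjusted by Benjamini-Hochberg over all genes, with a threshold of 0.05. The scripts were tested on simulated data. Motifs were counted with Python 3.11.15 in RefSeq promoter windows, where 8 members had none listed.

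The members, their roles and the related lists were chosen with earlier results of these data known, so no p-value is given for a list. Genes shown with every array were fixed by name or led their role under 5FU, with up to 5 more per direction and comparison, and up to 3 per related list. The 5FU concentration was not used because its unit could not be checked. Alternatives are in the closing section.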

Additional observations from a re-analysis of the deposited data

Results flagged for a closer look

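The effect of the CDK8 hairpin on the mitosis genes differed between 5FU and normal growth by a direct test of the difference (limma, 1 fit of all arrays). It was higher in 5FU for 26 members and lower for none, where 6.25% of all genes were higher and 5.62% lower. On the log2 scale the difference was 1.22 for AURKA, 1.19 for PLK1, 1.02 for BUB1B, 0.99 for TTK, 0.91 for KIF20A, 0.89 for CCNB1 and 0.88 for CCNB2. It was 0.76 for DLGAP5, 0.75 for CDC20, 0.74 for AURKB, 0.72 for UBE2C, 0.63 for CDC25C, 0.59 for ESPL1 and 0.34 for FOXM1. The direction was the same for these 14 members whichever single array was left out.

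The shCDK8 effect in low glucose differed from that in normal growth for 9 members, higher in 7 and lower in 2, where 7.78% of all genes were higher and 5.06% lower. The difference was 0.45 for KIF2C, 0.45 for BUB1B, 0.45 for UBE2C, 0.38 for ESPL1, 0.30 for PLK1, 0.27 for AURKB and 0.22 for CDC20. It was -0.76 for KIF18A and -0.35 for CDC25B, both of which had been above shControl in normal growth.

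In hypoxia it differed for 3 members, higher in 1 and lower in 2, where 9.06% of all genes were higher and 2.45% lower. Of the members these are 2.22% and 4.44%, so the counts do not set the members apart from other genes. The difference was 0.33 for FOXM1, -0.51 for UBE2C and -0.29 for CKS2. Without both arrays that stood apart, 5 members were lower and none higher.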

How the results depend on the processing

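Averaging a gene's rows moved none of the counts of members by over 1.5 times. Counts are of members called in the direction given in the report. Shares of all genes called are given for the main fits only, not for altered settings or with arrays left out. A changed count here thus cannot be read as particular to the members. Where settings disagree the cause was not tested.

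The replicate numbers shared by groups were checked by correlating deviations from group means. For same-numbered arrays these correlations ran from -0.62 to 0.37 in normal growth and from -0.31 to 0.39 in 5FU. Differently numbered arrays gave -0.67 to 0.73 in normal growth. In 5FU and hypoxia the deviations within a group mirror each other, so differently numbered arrays repeat the same values with opposite sign. With so few arrays per group, the check cannot decide whether the numbers pair the samples. The main fits treat the samples as unpaired. With replicate number as a block, shCDK8 against shControl had 4 members higher in 5FU and 0 lower in hypoxia, shCDK8 against shCDK19 had 12 higher in 5FU and 1 lower in hypoxia, and shCDK19 against shControl 0 lower in normal growth.

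Without shared variances, 5FU against DMSO had 17 lower; shCDK8 against shControl 3 higher in 5FU and 1 lower in hypoxia; shCDK8 against shCDK19 6 higher in 5FU and 2 lower in hypoxia; and shCDK19 against shControl 0 lower in normal growth and 1 in low glucose. In 1 fit of all arrays, shCDK8 against shControl had 17 higher in 5FU and 22 lower in hypoxia, shCDK8 against shCDK19 32 lower in hypoxia, and shCDK19 against shControl 3 lower in normal growth, 4 lower in 5FU, 0 lower in low glucose and 6 higher in hypoxia. With array medians subtracted, shCDK8 against shControl had 11 lower in low glucose and 5 in hypoxia, shCDK8 against shCDK19 11 lower in low glucose, shCDK19 against shControl 0 lower in normal growth, and hypoxia against normal growth in shCDK8 cells 1 lower. The shCDK8 effect then differed from normal growth for 2 members upwards in low glucose and 1 downwards in hypoxia. Without genes under a mean of 6, 11 members were higher in shCDK8 against shControl in 5FU, and 1 had a lower shCDK8 effect in hypoxia.

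With array weights, shCDK8 against shControl had 12 higher in 5FU and 0 lower in hypoxia; shCDK8 against shCDK19 32 lower in normal growth and 32 in hypoxia; shCDK19 against shControl 9 lower in normal growth, 6 in 5FU and 5 in low glucose; and hypoxia against normal growth 31 lower in shCDK8, 8 in shCDK19 and 7 in shControl cells. Differences of effects were then 15 upwards for shCDK8 in low glucose, 1 downwards for shCDK8 in hypoxia, 6 downwards for shCDK19 in 5FU and 4 upwards for shCDK19 in low glucose. Without both arrays that stood apart, a setting added after seeing the data, shCDK8 against shControl had 20 lower in hypoxia, shCDK8 against shCDK19 31, shCDK19 against shControl 6 lower in normal growth, and hypoxia against normal growth 25 lower in shCDK8 and 5 in shControl cells. Effects differed downwards for 5 members for shCDK8 in hypoxia and 2 for shCDK19 in 5FU. CENPE in hypoxia against normal growth in shControl cells had a log2 difference of 0.045 without the first hypoxia array (adjusted p 0.89 with the other array that stood apart also left out, 0.93 otherwise; limma), against -0.61 with all arrays, and leaving out 1 array at a time gave -1.27 to 0.045.

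Leaving out 1 array at a time, from the groups compared, gave the following ranges. Lower against shControl were 16 to 29 in normal growth, 11 to 16 in low glucose and 0 to 20 in hypoxia for shCDK8, and 0 in normal growth, 0 in 5FU and 1 to 5 in low glucose for shCDK19. Higher were 1 to 2 in 5FU for shCDK8 and 0 to 20 in hypoxia for shCDK19. For shCDK8 against shCDK19 lower were 12 to 21, 11 to 16 and 0 in normal growth, low glucose and hypoxia, and 1 to 3 were higher in 5FU. Lower were 5 to 27 for 5FU against DMSO and 39 to 42 for low against high glucose. Against normal growth, 5FU had 26 to 28 lower and 3 to 5 higher in shControl, 12 to 17 lower and 13 to 18 higher in shCDK8, and 27 to 33 lower in shCDK19 cells; hypoxia had 3 to 32 lower in shControl, 1 to 15 lower in shCDK8, and 3 to 4 lower and 4 to 8 higher in shCDK19 cells; DMSO had 3 to 13 lower and 7 to 9 higher. Differences of effects were 18 to 31 upwards for shCDK8 in 5FU, 4 to 10 upwards in low glucose and 1 to 2 downwards in hypoxia, and 0 to 26 upwards for shCDK19 in hypoxia. A group left with 1 array is assumed to vary like the others.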
